A study of Mus musculus and Homo sapiens with 81 samples.

Results

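The 43 genes described here encode the machinery of mitosis: mitotic cyclins and CDK1, spindle checkpoint proteins, mitotic kinases, the chromosomal passenger complex, the anaphase machinery, kinetochore proteins, kinesins, spindle assembly and cytokinesis factors, and chromosome proteins. They were chosen by symbol, among 23336 genes in the mouse count table and 23227 genes in each of the 4 human tables, with KIF4A standing for Kif4. All 43 were found in every table, and all 43 passed the filter on low counts in every line. Gene expression had been measured by poly(A) RNA-seq in 81 libraries of cultured cancer cells. B16 mouse melanoma cells carried the guide Ptpn2sg3 against Ptpn2, or the non-targeting guide Bro3, and received IFNb+IFNg, IFNb+TNFa, IFNg+TNFa, IFNb, IFNg, TNFa or vehicle for 48 h. That gave 14 groups, each of 3 libraries. The human lines HT29 (from colon), A549 (from lung), and the melanoma lines MelJuSo and A375 carried a PTPN2 guide or the non-targeting guide Bro4 and received IFNg or vehicle, with 2 or 3 libraries per group. IFNg was given at 100 ng/mL, TNFa at 10 ng/mL and IFNb at 1000 U/mL, and vehicle was PBS with BSA. Cells with the Ptpn2 guide are called Ptpn2-null as labelled. Each genotype is represented by a single guide, so any other difference between the 2 guide populations cannot be told apart from genotype, and loss of the protein was not measured. Whether replicates came from separate cultures is not stated, so the p-values cover the variation among the libraries at hand, part or all of which may be technical.

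Most genes of the mitotic machinery are transcribed late in the cell cycle, in G2 and M phase, and are repressed in cells that leave the cycle. The DREAM complex represses them in quiescent cells, and the same MuvB core, joined to MYBL2 and FOXM1, activates them in G2. Promoters of this class often hold a cell cycle homology region (CHR) with CCAAT boxes nearby. IFNg signals through receptor-bound JAK kinases and is known to slow the division of many tumour cells. PTPN2 is a phosphatase that removes phosphate from proteins of this pathway, JAK kinases among them.

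Libraries held 3498860 to 6432517 counts in B16 and 4191317 to 9605776 counts in the human lines. Ptpn2 had 8.23 to 16.4 CPM (read counts scaled to library size, with TMM factors) in the Ptpn2-null B16 libraries, against 44.7 to 61.9 CPM in the control B16 libraries. PTPN2 was lower in the libraries labelled Ptpn2-null than in their controls at the same treatment in A549, HT29 and MelJuSo, by less than in B16. In HT29 under IFNg it had 26.5 and 27.6 CPM in Ptpn2-null libraries, against 39.8 and 40.2 CPM in controls. HT29 control vehicle libraries had 27.9 and 28.9 CPM. In MelJuSo under IFNg PTPN2 had 10.8, 9.87 and 13.9 CPM in Ptpn2-null and 14.2, 14.6 and 17.7 CPM in control libraries. In A375 it went against the vehicle labels: the libraries labelled Ptpn2-null had 24.1, 25.1 and 24.2 CPM under vehicle, and those labelled control 11.9 and 12.1 CPM. Under IFNg the A375 libraries labelled Ptpn2-null had 11.3, 12.7 and 13.6 CPM, against 22.8, 19.2 and 17.2 CPM in those labelled control. Of the 8 melanocyte markers, 8 exceeded 10 CPM in B16 and in MelJuSo, but only MITF and SOX10 did in A375. HT29 had 5 of 7 colon markers above 10 CPM, without CDX2 and CDH17, and A549 had KRT8, KRT18 and CDH1 but not SFTPB, SFTPC or NKX2-1. KRT8, KRT18 and CDH1 also exceeded 10 CPM in HT29, and KRT8 and KRT18 in A375, so they are not particular to A549. One HT29 library, control IFNg 1, is described as lung in its cell type field, and counts without it are given below. Summed over the 7 colon markers, every HT29 library, this one included, had at least 1360 CPM, and no A549 library exceeded 389 CPM. In B16, 5 libraries stood apart from their groups: Ptpn2-null TNFa 1, IFNb+IFNg 3 and IFNg+TNFa 1, and control IFNb+IFNg 2 and 3. The cut was an SD of 0.2 for log2 deviations from the group mean. These 5 had 0.204 to 0.246 and the other 37 had 0.153 to 0.198, so the cut divides close values. Rank correlations of the deviations with transcript length were 0.399 to 0.468 in size in the 5 and 0.012 to 0.381 in the others.

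To show letters that many members share, 150 bases directly upstream of the RefSeq start (GRCm38.p6) are printed, in gene orientation. They are those of Mki67 (largest fall in B16), Top2a (also a chromosome protein) and Kif11 (a kinesin). Cdk1, Cdc20, Bub3 and Pttg1 were considered too, but only stretches that overlap no exon annotated in GENCODE M21 are printed. Capitals mark the CHR letters TTTGAA and the CCAAT box, read on either strand, so that TTCAAA and ATTGG are the same motifs on the other strand.
Mki67 (chr7:135716380-135716529, minus strand): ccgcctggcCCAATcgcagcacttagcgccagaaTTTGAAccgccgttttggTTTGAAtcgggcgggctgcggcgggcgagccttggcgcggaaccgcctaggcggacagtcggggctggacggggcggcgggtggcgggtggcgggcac
Top2a (chr11:99024190-99024339, minus strand): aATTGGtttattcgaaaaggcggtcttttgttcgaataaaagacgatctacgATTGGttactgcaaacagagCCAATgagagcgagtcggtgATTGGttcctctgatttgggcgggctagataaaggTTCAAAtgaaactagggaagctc
Kif11 (chr19:37376232-37376381, plus strand): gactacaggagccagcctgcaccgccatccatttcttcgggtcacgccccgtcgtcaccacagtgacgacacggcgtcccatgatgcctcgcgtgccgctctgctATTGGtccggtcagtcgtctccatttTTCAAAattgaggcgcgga
Within the whole 300-base windows, of which 37 of the 43 members have at least one, 72.5% of the members' 40 windows held TTTGAA, against 17.9% of all 32851 mouse windows. CCAAT was found in 75% of the members' windows, against 37.4% of all windows, and both motifs together in 65%, against 7% of all windows. The variant TTTAAA was in 25% of the members' windows and 13.2% of all windows. In 18 of the 40 windows at least 1 of the 250 bases before the RefSeq start lies inside the member's own gene as annotated in GENCODE M21, and in 5 all 250 do, so those windows are not all upstream sequence. The Pttg1 window, among those 5, held neither TTTGAA nor CCAAT.

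The combination of IFNg and TNFa lowered nearly the whole mitotic gene set in B16 cells of both genotypes. In Ptpn2-null cells 42 of 43 members were lower than under vehicle (37.6% of all 11726 genes tested were called lower and 39.2% higher), with a median log2 change of -3.3 over the members and 0.03 over all genes. In control cells 42 of 43 were also lower (33.3% of all genes lower, 36% higher), with a median log2 change of -2.22. The summed level of the 43 members was 952.7 to 989.3 CPM in the 3 Ptpn2-null libraries under IFNg+TNFa and 1572 to 1638 CPM in the 3 control libraries, against 7359 to 7443 CPM in Ptpn2-null vehicle libraries and 7122 to 7571 CPM in control vehicle libraries. These levels were 13.1% of vehicle in Ptpn2-null cells and 22% of vehicle in control cells. In bulk RNA, fewer cells in mitosis and less of these RNAs per cell cannot be told apart.

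**Figure D1:**
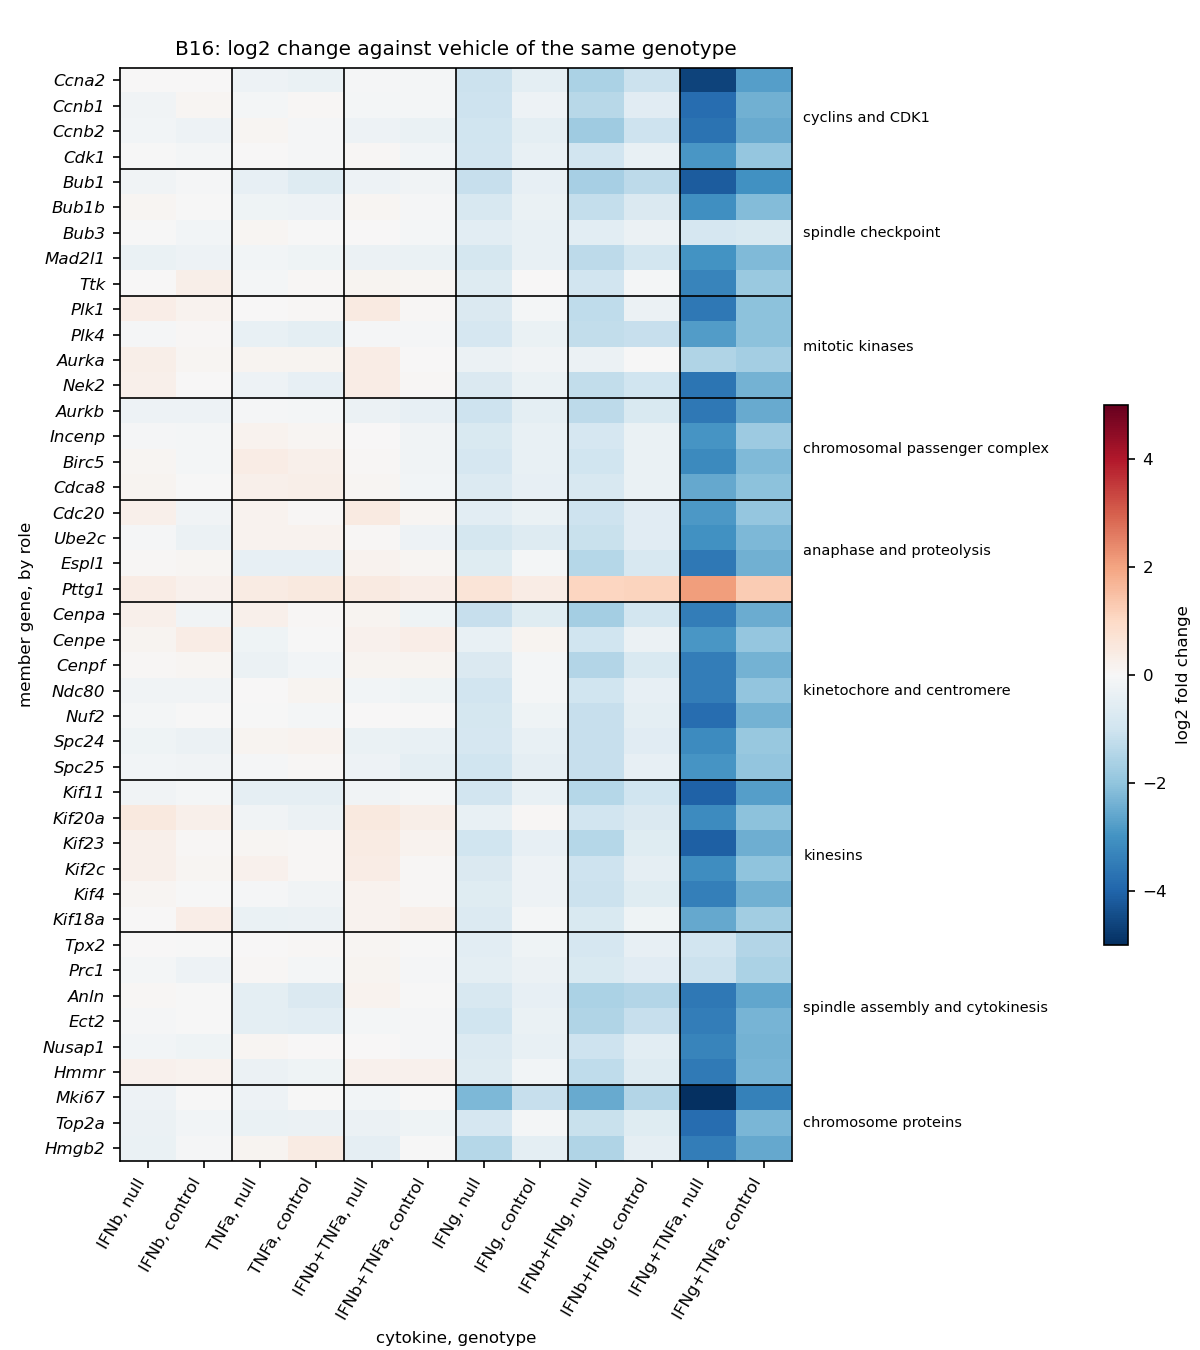
Log2 change of each of the 43 members (rows, grouped by role) under each cytokine or pair against vehicle of the same genotype in B16 cells, with Ptpn2-null left of control. Blue is lower and red higher. The IFNg+TNFa columns are blue in every row except Pttg1, and the IFNb, TNFa and IFNb+TNFa columns are nearly white.

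The mitotic cyclins and their kinase Cdk1 all fell. Cyclin A2 (Ccna2), which acts in S phase and at mitotic entry, had 10.6, 12.2 and 12.3 CPM in Ptpn2-null cells under IFNg+TNFa and 38.2, 42.4 and 42.1 CPM in control cells under the pair, against 292, 277 and 294 CPM in Ptpn2-null vehicle and 298, 279 and 265 CPM in control vehicle. None of these treated libraries came near a vehicle library, and the 2 treated genotypes did not overlap. Its log2 change was -4.62 ± 0.092 (SE) in Ptpn2-null cells (adjusted p = 5.4e-43) and -2.77 ± 0.075 in control cells (adjusted p = 2e-36). Cyclin B1 (Ccnb1), the partner of CDK1 at mitotic entry, had 6.63, 6.01 and 6.99 CPM in Ptpn2-null cells under the pair and 15, 17.6 and 16.5 CPM in control cells under the pair, against 91.7, 85.2 and 98.6 CPM in Ptpn2-null vehicle and 101, 78.3 and 79.2 CPM in control vehicle. Cdk1 itself fell less steeply, by 2.9 ± 0.068 on the log2 scale in Ptpn2-null cells and by 1.95 ± 0.06 in control cells.

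Among the 5 spindle checkpoint genes, which hold cells before anaphase until chromosomes are attached, Bub1 and Bub3 marked the ends of the range. The checkpoint kinase gene Bub1 had 7.89, 8.61 and 12 CPM in Ptpn2-null cells and 19.8, 17.1 and 23.1 CPM in control cells under IFNg+TNFa, against 159, 168 and 183 CPM in Ptpn2-null vehicle and 168, 155 and 167 CPM in control vehicle. Bub3, whose protein brings BUB1 to kinetochores, had 128, 115 and 125 CPM in Ptpn2-null cells and 135, 146 and 152 CPM in control cells under the pair, against 211, 224 and 231 CPM in Ptpn2-null vehicle and 253, 249 and 227 CPM in control vehicle. Bub3 showed the smallest fall of all members, with log2 changes of -0.86 ± 0.056 in Ptpn2-null cells and -0.75 ± 0.055 in control cells, yet its treated and vehicle libraries did not overlap.

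The mitotic kinases (4 of 4) and the chromosomal passenger complex (4 of 4) were lower in both genotypes under IFNg+TNFa. Of all genes tested, 37.6% were lower in Ptpn2-null and 33.3% in control cells. Plk1, a kinase of mitotic entry and centrosome maturation, had 10.6, 9.82 and 11.4 CPM in Ptpn2-null cells and 32.1, 31.8 and 35.6 CPM in control cells under the pair, against 129, 128 and 128 CPM in Ptpn2-null vehicle and 137, 136 and 135 CPM in control vehicle. Its log2 change was -3.59 ± 0.091 in Ptpn2-null cells and -2.04 ± 0.074 in control cells. Aurka, the spindle pole kinase, had 45.9, 45.7 and 40.9 CPM in Ptpn2-null cells and 46.3, 40.2 and 46.3 CPM in control cells under the pair, against 129, 123 and 122 CPM in Ptpn2-null vehicle and 155, 133 and 145 CPM in control vehicle. The 2 treated genotypes overlapped for this gene. Aurkb, the catalytic subunit of the passenger complex, changed by -3.59 ± 0.085 in Ptpn2-null cells and -2.51 ± 0.074 in control cells, and its scaffold Incenp by -2.94 ± 0.083 in Ptpn2-null cells and -1.83 ± 0.072 in control cells.

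The kinesins (6 of 6), kinetochore genes (7 of 7) and chromosome proteins (3 of 3) were lower in both genotypes under IFNg+TNFa. The share of all genes that were lower was 37.6% in Ptpn2-null and 33.3% in control cells. Kif11, the motor that pushes spindle poles apart, had 13.3, 14.8 and 18 CPM in Ptpn2-null cells and 42.6, 35.1 and 31.6 CPM in control cells under the pair, against 257, 254 and 259 CPM in Ptpn2-null vehicle and 268, 231 and 235 CPM in control vehicle. Kif23, a motor of the central spindle, had 9.68, 7.81 and 6.62 CPM in Ptpn2-null cells and 27.3, 26.2 and 26.4 CPM in control cells under the pair, against 133, 137 and 136 CPM in Ptpn2-null vehicle and 158, 139 and 141 CPM in control vehicle. The 7 kinetochore and centromere genes had log2 changes between -3.81 and -2.91 in Ptpn2-null cells and between -2.47 and -1.9 in control cells. Mki67, which coats mitotic chromosomes and is widely used as a proliferation marker, changed most of all: 25.3, 28.6 and 35.1 CPM in Ptpn2-null cells and 74.1, 74.1 and 78.1 CPM in control cells under the pair, against 947, 949 and 940 CPM in Ptpn2-null vehicle and 810, 814 and 740 CPM in control vehicle. That was a log2 change of -4.99 ± 0.081 in Ptpn2-null cells (adjusted p = 2.1e-45) and -3.38 ± 0.071 in control cells (adjusted p = 6e-40). Top2a, the topoisomerase that untangles sister chromatids, changed by -3.83 ± 0.058 in Ptpn2-null cells and -2.29 ± 0.052 in control cells.

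Ptpn2-null cells had less of most members than control cells when both received IFNg+TNFa. In this direct comparison 39 of 43 members were lower in Ptpn2-null cells (20.8% of all genes were called lower and 20.3% higher), with a median log2 difference of -1.12. The widest gaps were in Ccna2 (-1.81 ± 0.116), Kif23 (-1.72 ± 0.114) and Plk1 (-1.64 ± 0.111). The interaction, which tests whether the response itself differed between genotypes, was called for 41 members: 38 with a larger fall in Ptpn2-null cells (15.3% of all genes in that direction) and 3 in the other direction (11%).

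The exceptions were Pttg1, Tpx2 and Prc1. Pttg1 encodes securin, which inhibits separase until anaphase, and was the one member higher under the pair: 62.7, 54.9 and 54.1 CPM in Ptpn2-null cells and 30.9, 34.4 and 34.7 CPM in control cells, against 13.6, 14.8 and 12.5 CPM in Ptpn2-null vehicle and 13.6, 14.2 and 13.3 CPM in control vehicle. Its log2 change was 2.08 ± 0.129 in Ptpn2-null cells (adjusted p = 1.1e-20) and 1.28 ± 0.14 in control cells (adjusted p = 1.3e-11), with a genotype difference of 0.78 ± 0.112. Tpx2, which activates Aurora A on the spindle, had 116, 116 and 114 CPM in Ptpn2-null cells and 86, 78.4 and 76.7 CPM in control cells under the pair, against 230, 226 and 220 CPM in Ptpn2-null vehicle and 224, 222 and 221 CPM in control vehicle. It thus fell in both genotypes but stood 0.52 ± 0.057 log2 units higher in Ptpn2-null than in control cells (adjusted p = 5.2e-11). Prc1, the microtubule bundler of the central spindle, had 76.5, 85.1 and 80.2 CPM in Ptpn2-null cells and 60.1, 64.6 and 64.2 CPM in control cells under the pair, a log2 difference of 0.35 ± 0.071. Aurka did not pass the test between genotypes (log2 difference -0.0032 ± 0.084, adjusted p = 0.98). Under IFNg alone Tpx2, Prc1 and Aurka were lower in Ptpn2-null than in control cells, with log2 differences of -0.32 for Tpx2, -0.36 for Prc1 and -0.35 for Aurka. Prc1 shares 911 exonic bases with Rccd1 on the opposite strand, and the strand setting of the counting is not given. Rccd1 did not pass the test in either genotype under the pair, with log2 changes of 0.18 ± 0.176 in Ptpn2-null cells and -0.05 ± 0.177 in control cells. Other members that share exonic bases with an opposite-strand gene include Kif20a with Cdc23 (1271 bases), Kif4 with Pdzd11 (832 bases), Ube2c with Tnnc2 (592 bases) and Ccna2 with Exosc9 (510 bases), and how their shared reads were assigned is uncertain.

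**Figure D2:**
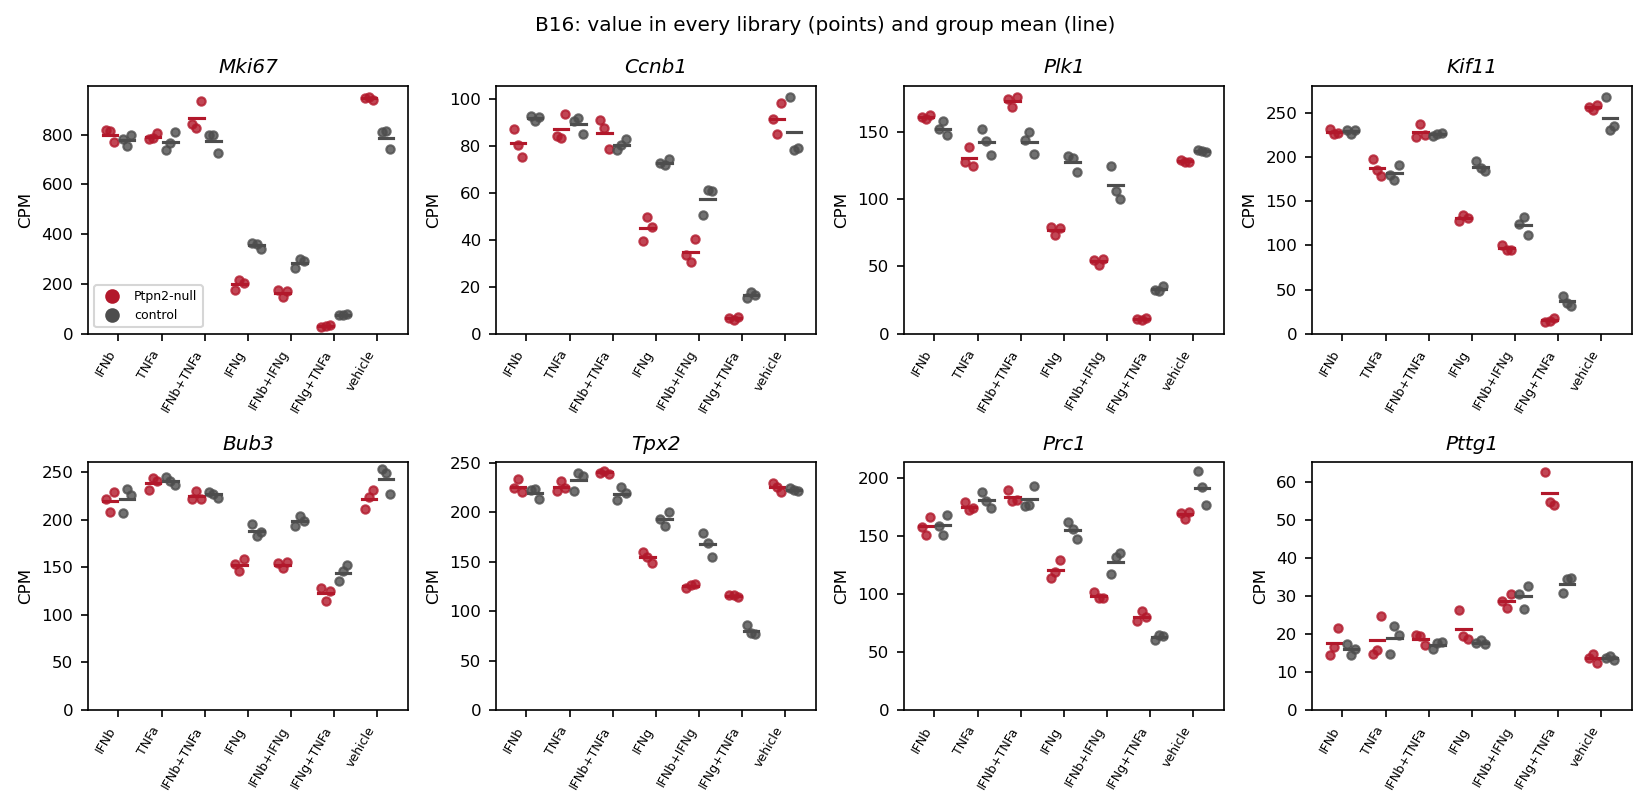
CPM of 8 members in every B16 library (points, 3 per group) with the group mean (line), by treatment, with Ptpn2-null in red left of control in grey. Mki67, Ccnb1, Plk1 and Kif11 are near the axis under IFNg+TNFa, Bub3 stays above 100 CPM, and Pttg1 is highest in Ptpn2-null cells under IFNg+TNFa, at 54.1 to 62.7 CPM.

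IFNg alone lowered the same role groups by smaller amounts, and here the genotypes differed in how many members passed the test. In Ptpn2-null cells 42 of 43 members were lower than under vehicle (30.4% of all genes lower, 29% higher) with a median log2 change of -0.79. In control cells 33 were lower (17.9% of all genes) with a median of -0.33, and Pttg1 was higher (20%), a call that was lost without any one of the 6 libraries compared. Summed member levels were 3836 to 4045 CPM in Ptpn2-null and 5653 to 5872 CPM in control libraries under IFNg, which is 53.4% of vehicle in Ptpn2-null cells and 78.7% in control cells. Mki67 again changed most, at 176, 215 and 203 CPM in Ptpn2-null and 366, 362 and 342 CPM in control cells under IFNg. Its log2 changes were -2.25 ± 0.065 in Ptpn2-null cells and -1.14 ± 0.061 in control cells. Hmgb2, a chromatin protein, changed by -1.42 ± 0.13 in Ptpn2-null and -0.49 ± 0.119 in control cells.

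For several members the fall passed the test in Ptpn2-null cells but not in control cells, and the interaction was called for each of those named here. Plk1 had 79, 73.2 and 78.9 CPM in Ptpn2-null and 132, 131 and 120 CPM in control cells under IFNg, with log2 changes of -0.73 ± 0.066 in Ptpn2-null and -0.09 ± 0.061 in control cells (adjusted p = 0.24). Top2a had 453, 499 and 491 CPM in Ptpn2-null and 793, 746 and 742 CPM in control cells under IFNg, with log2 changes of -0.85 ± 0.048 in Ptpn2-null and -0.08 ± 0.047 in control cells (adjusted p = 0.16). Ttk, the kinase that starts the checkpoint, changed by -0.65 ± 0.0995 in Ptpn2-null and 0.02 ± 0.094 in control cells (adjusted p = 0.86). Cenpe, a kinetochore motor, changed by -0.37 ± 0.073 in Ptpn2-null and 0.15 ± 0.072 in control cells (adjusted p = 0.11). The interactions were -0.64 ± 0.09 for Plk1, -0.77 ± 0.067 for Top2a, -0.67 ± 0.137 for Ttk and -0.52 ± 0.103 for Cenpe.

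Over all members, the direct comparison under IFNg had 42 of 43 lower in Ptpn2-null than in control cells (17.2% of all genes lower, 17.7% higher), with a median log2 difference of -0.53. Pttg1 was the remaining member, at 26.3, 19.4 and 18.7 CPM in Ptpn2-null and 17.6, 18.5 and 17.3 CPM in control cells (log2 difference 0.26 ± 0.144, adjusted p = 0.16). The interaction was called with a larger fall in Ptpn2-null cells for 36 members (12.4% of all genes in that direction and 9.07% in the other). By role, the median log2 difference between genotypes ran from -0.71 for the 3 chromosome proteins and -0.67 for the 4 genes of the cyclin and CDK1 group to -0.39 for the 6 spindle assembly and cytokinesis genes.

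Adding IFNb to IFNg gave lower values than IFNg alone in both genotypes, in the summed level: 2968 to 3146 CPM in Ptpn2-null and 4337 to 4728 CPM in control libraries, 41.7% of vehicle in Ptpn2-null cells and 61.2% in control cells. In neither genotype did these sums overlap those with IFNg alone. The sum weighs abundant members most, the 2 treatments were not tested against each other, and members differed. In control cells Anln had 110, 142 and 103 CPM under IFNb+IFNg and 260, 247 and 230 CPM under IFNg alone. Aurka was not lower there, at 142, 139 and 145 CPM under IFNb+IFNg and 133, 130 and 121 CPM under IFNg alone. Under this pair 42 members were lower and Pttg1 higher in Ptpn2-null cells (33.4% of all genes lower, 34.1% higher), and 39 lower and Pttg1 higher in control cells (31.1% lower, 34.3% higher). Ptpn2-null cells had 40 members lower than control cells (19.2% of all genes lower). Those not called were Pttg1 (-0.06 ± 0.129), Plk4 (-0.04 ± 0.104) and Anln (-0.16 ± 0.076). Of the 5 libraries that stood apart, 3 are in these groups, and without the 5 libraries 36 members were lower. The interaction was called for 37 members, all with a larger fall in Ptpn2-null cells (8.74% of all genes in that direction and 6.69% in the other), and for 31 members without the 5 libraries.

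**Figure D3:**
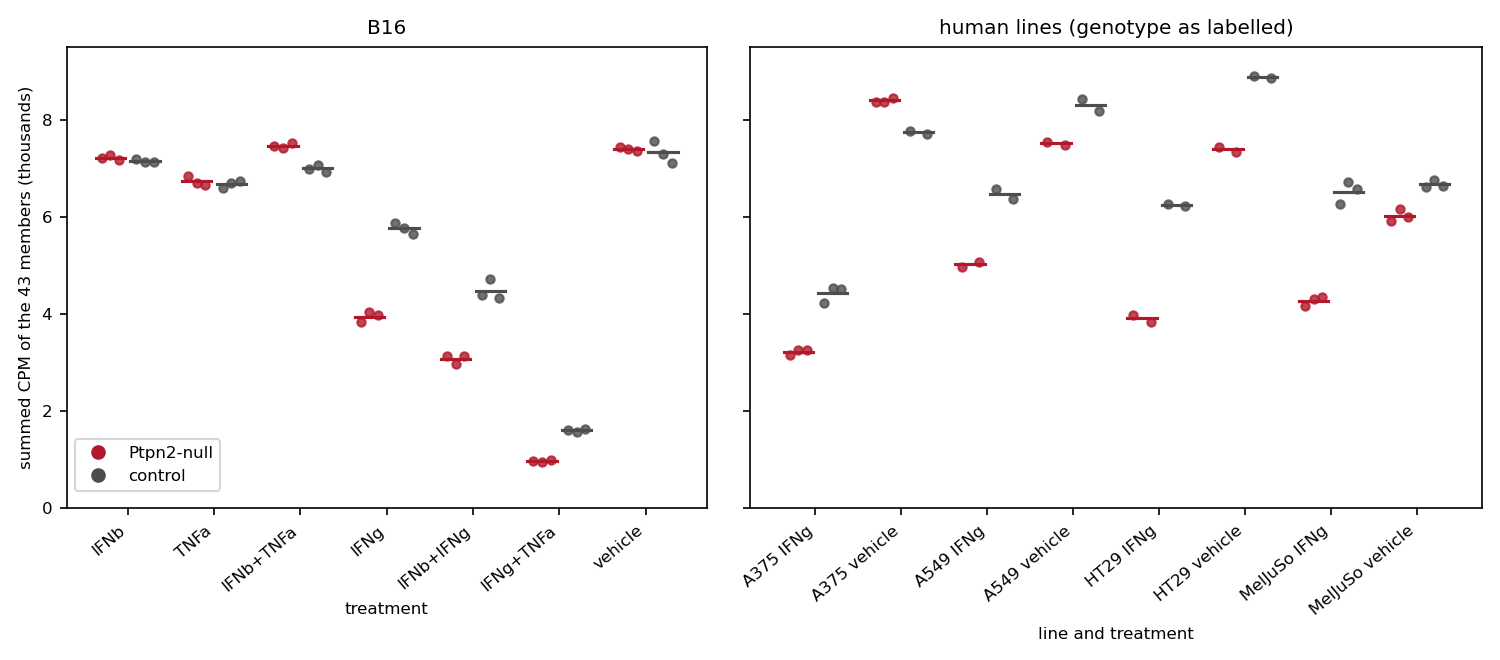
Summed CPM of the 43 members in each library (points) and the group mean (line), for B16 by treatment (left) and for 4 human lines under IFNg and vehicle (right), with Ptpn2-null in red left of control in grey, genotype as labelled. The B16 libraries under IFNg+TNFa lie at or below 1638 CPM, and in every human line the Ptpn2-null IFNg libraries are the lowest.

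Without IFNg, changes of the members were small and went both ways. Under IFNb, 9 members were higher and 6 lower in Ptpn2-null cells (14.7% and 13% of all genes), and 6 higher and 8 lower in control cells (17% and 13.5%). Under TNFa, 7 were higher and 17 lower in Ptpn2-null cells (21.1% and 22.4%), and 4 higher and 15 lower in control cells (24.7% and 23%). Under IFNb+TNFa, 12 were higher and 9 lower in Ptpn2-null cells (20.6% and 17.7%), and 4 higher and 10 lower in control cells (21.6% and 16.9%). The largest of these log2 changes in size was that of the cytokinetic scaffold gene Anln, which changed by -0.49 ± 0.066 in Ptpn2-null and -0.72 ± 0.067 in control cells under TNFa. Kif20a, a motor of cytokinesis, was higher under IFNb by 0.48 ± 0.068 in Ptpn2-null and 0.26 ± 0.067 in control cells. Between genotypes, edgeR called 0 members under IFNb (3 at an unadjusted p under 0.05, 0 by DESeq2; 0.171% of all genes lower and 0.384% higher). Under TNFa it called 0 members (7 at an unadjusted p under 0.05, 1 by DESeq2; 0.674% of all genes lower and 0.264% higher), and under IFNb+TNFa it called Plk1 as higher (0.28 ± 0.061; 0.426% of all genes higher).

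Interactions without IFNg were few. Under IFNb, Cdc20 and Cenpa were called as higher (0.188% of all genes higher, 0.324% lower), with interactions of 0.42 ± 0.108 and 0.43 ± 0.105. Under IFNb+TNFa, Plk1 and Aurka were called as higher (0.443% of all genes), with interactions of 0.37 ± 0.086 and 0.35 ± 0.089. Under TNFa 0 members were called (3 at an unadjusted p under 0.05, 0 by DESeq2; 0.0341% of all genes lower). Each of these 4 calls was lost without at least 1 library, Plk1 without control IFNb+TNFa 3 or Ptpn2-null vehicle 3 and the others without most single libraries, and the counts were 0 to 2 under IFNb and 0 to 4 under IFNb+TNFa. The Plk1 genotype difference under IFNb+TNFa was also lost without control IFNb+TNFa 3. Under vehicle, Mki67 was higher in Ptpn2-null than in control cells (0.26 ± 0.059; 1.91% of all genes higher), and the anaphase activator Cdc20 (-0.3 ± 0.075) and Cdk1 (-0.18 ± 0.053) were lower (1.16% of all genes lower). That count of 3 varied between 1 and 4 over the fits with 1 library left out, and was 1 without control vehicle 1, Ptpn2-null vehicle 2 or Ptpn2-null vehicle 3.

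The change under IFNg+TNFa was larger than the sum of the log2 changes under each cytokine alone. In Ptpn2-null cells the summed single changes had a median of -0.92 over the members, and the pair had a median of -3.3. In control cells the medians were -0.37 for the sum and -2.22 for the pair. The departure from additive log2 effects was called as a further fall for 42 members in Ptpn2-null cells (15.8% of all genes lower), with a median departure of -2.5, and for 42 members in control cells (15.1% lower), with a median of -1.89. Pttg1 departed upward in Ptpn2-null cells, by 1.01 (11.6% of all genes higher). For IFNb+IFNg the departure was called downward for 23 members in Ptpn2-null cells (14% of all genes) and 26 in control cells (25.9%), with a median of -0.3 in each, and upward for 3 in control cells (20.9%). For IFNb+TNFa it was called upward for 14 and downward for 3 members in Ptpn2-null cells (14.2% and 8.58%), and upward for 12 and downward for 3 in control cells (14.8% and 11.5%). The B16 comparisons of a genotype share their vehicle libraries.

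**Figure D4:**
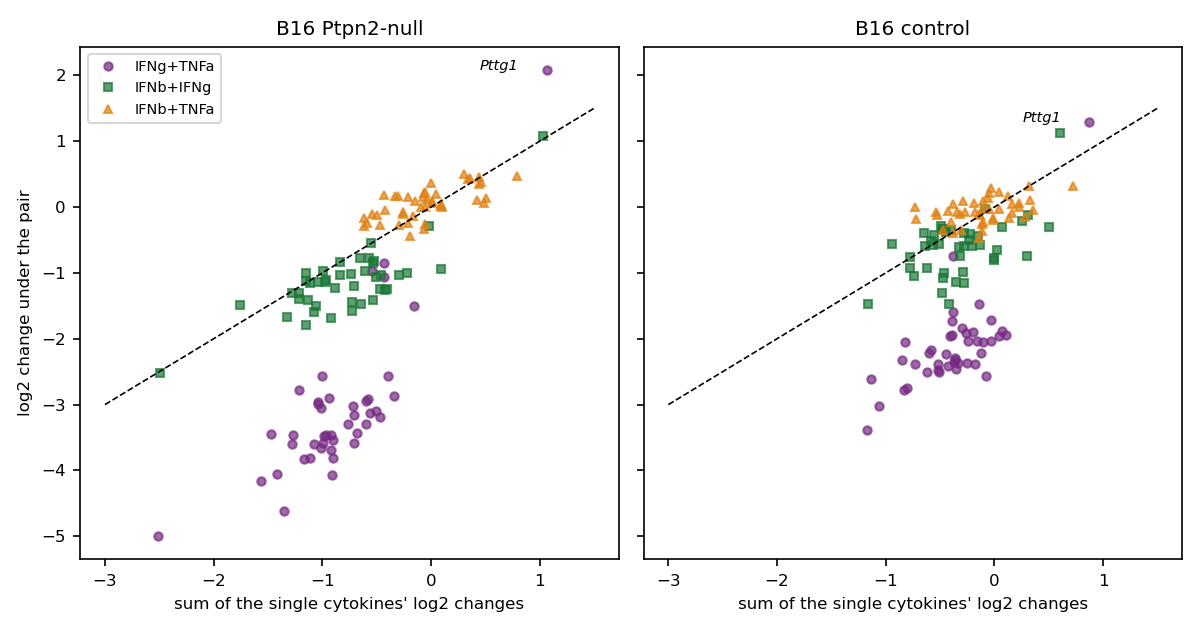
Log2 change of each member under a cytokine pair (vertical axis) against the sum of its log2 changes under the single cytokines (horizontal axis), in Ptpn2-null (left) and control (right) B16 cells, with the dashed line marking equal values. For IFNg+TNFa the median departure from the line was -2.5 in Ptpn2-null and -1.89 in control cells, with Pttg1 above the line and Bub3 among the points nearest to it, and for IFNb+IFNg it was -0.3 in each.

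Members with and without the promoter letters had similar median log2 changes under IFNg+TNFa, and a difference was not tested. The 26 members with TTTGAA in the window had a median log2 change of -3.45 in Ptpn2-null cells and -2.26 in control cells. For the 11 members with a window but no TTTGAA, the medians were -3.19 in Ptpn2-null cells and -2.22 in control cells. These 11 include Pttg1, which rose, and their changes ran from -4.16 to 2.08 in Ptpn2-null and -3.03 to 1.28 in control cells. Plk4, Cenpe, Birc5 and Ccnb1 among them held the variant TTTAAA. By CCAAT, medians in Ptpn2-null cells were -3.46 for the 27 members with it and -3.15 for the 10 without. In control cells these medians were -2.33 and -2.13. A match of letters is a description and not a binding site.

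IFNg lowered most members in Ptpn2-null cells of the 4 human lines, and in control cells of A375, A549 and HT29, but only 2 in MelJuSo control cells. In A549, 43 of 43 members were lower under IFNg in Ptpn2-null cells (26.7% of all 13172 genes lower), with a median log2 change of -0.64, and 35 were lower in control cells (23.7%), with a median of -0.35. In HT29, 43 were lower in Ptpn2-null cells (34.5% of all 12555 genes) with a median of -0.9, and 34 in control cells (28.7%) with a median of -0.49. In MelJuSo, 42 were lower in Ptpn2-null cells (27.4% of all 12271 genes) with a median of -0.49, and 2 in control cells (5.18%) with a median of -0.03. The 2 MelJuSo calls, CCNA2 (-0.15 ± 0.05) and KIF20A (-0.15 ± 0.05), rest on single libraries: the count was 0 to 6 with 1 library left out (0 without control IFNg 1 or 3 or control vehicle 2, 1 without control vehicle 1 and 6 without control IFNg 2), and 0 by DESeq2. In A375, with both genotypes averaged because the vehicle labels are in doubt, 43 of 43 were lower (35.6% of all 13410 genes), with a median of -1.12.

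KIF20A, the cytokinesis motor, changed most in A375, HT29 and Ptpn2-null MelJuSo cells. In A375 it had 23.2, 21.4 and 23.1 CPM under IFNg in libraries labelled Ptpn2-null and 28.3, 33.7 and 27.3 CPM in those labelled control, against 129, 136 and 140 CPM under vehicle in libraries labelled Ptpn2-null and 137 and 141 CPM in those labelled control. The IFNg and vehicle libraries did not overlap, whichever label is taken. In HT29 it had 18.5 and 23.6 CPM in Ptpn2-null and 38.5 and 35.5 CPM in control cells under IFNg, against 74.2 and 71.3 CPM in Ptpn2-null vehicle and 104 and 105 CPM in control vehicle. Its log2 change in HT29 was -1.81 ± 0.093 in Ptpn2-null cells and -1.5 ± 0.081 in control cells. In A549 the largest fall was in ANLN, with log2 changes of -1.12 in Ptpn2-null cells and -0.84 in control cells.

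BUB3 was the least changed member in Ptpn2-null cells of A549 and MelJuSo, and in A375 under either label. In MelJuSo it had 197, 206 and 211 CPM in Ptpn2-null and 201, 215 and 204 CPM in control cells under IFNg, against 193, 204 and 207 CPM in Ptpn2-null vehicle and 205, 211 and 212 CPM in control vehicle. All 4 groups overlapped, and neither IFNg effect passed the test (0.02 ± 0.042 in Ptpn2-null cells and -0.02 ± 0.041 in control cells). The mouse counterpart Pttg1 was higher under IFNg in B16, but in control cells that call was lost without any one of the libraries compared. PTTG1 was lower in A375, A549 and HT29 under either genotype label and in MelJuSo Ptpn2-null cells. In A549 it had 15.8 and 16.1 CPM in Ptpn2-null and 22.4 and 23.2 CPM in control cells under IFNg, against 32.5 and 28.4 CPM in Ptpn2-null vehicle and 34.9 and 32 CPM in control vehicle. In MelJuSo, PTTG1 had 34.5, 37.8 and 34 CPM in Ptpn2-null and 63.5, 72.6 and 73.7 CPM in control cells under IFNg, against 73.1, 65.4 and 64.4 CPM in Ptpn2-null vehicle and 70.8, 73.3 and 72.2 CPM in control vehicle. In MelJuSo the PTTG1 change in control cells did not pass the test (-0.04, adjusted p = 0.76). A difference between mouse and human lines was not tested.

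**Figure D5:**
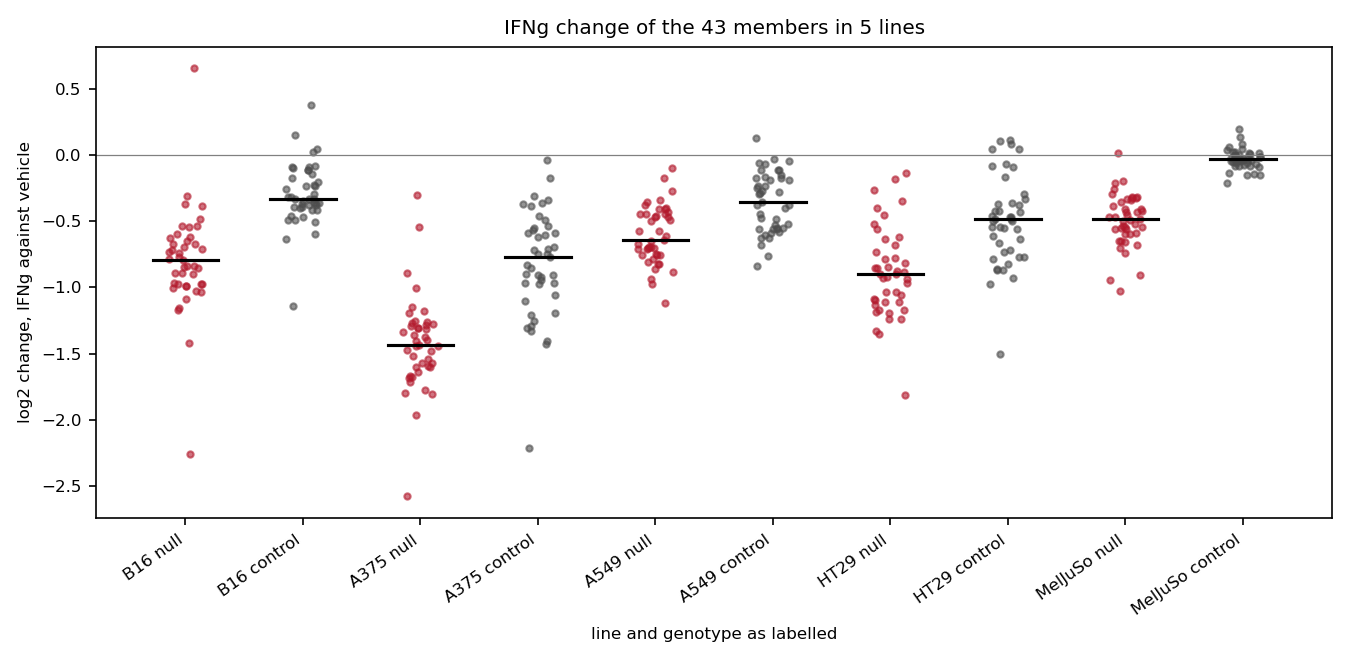
Log2 change of each of the 43 members (points) under IFNg against vehicle in B16 and the 4 human lines, with Ptpn2-null in red left of control in grey and genotype as labelled, and the median as a black line. Medians lie below 0 in every group, at -0.03 in MelJuSo control cells and -0.79 in B16 Ptpn2-null cells.

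Under IFNg, members were lower in Ptpn2-null than in control cells in each human line. The counts were 38 of 43 in A549 (11.3% of all genes lower), 42 in HT29 (20.5%), 42 in MelJuSo (25.7%) and 36 in A375 as labelled (25%), with median log2 differences of -0.37 in A549, -0.68 in HT29, -0.64 in MelJuSo and -0.46 in A375. In MelJuSo CDC20 had 31, 29.6 and 25.3 CPM in Ptpn2-null and 53.9, 63.5 and 58 CPM in control cells under IFNg, against 59, 53 and 55.7 CPM in Ptpn2-null vehicle and 56.5, 59.8 and 58.9 CPM in control vehicle. Only the Ptpn2-null IFNg libraries stood apart for this gene, and its interaction was -0.95 ± 0.102 (adjusted p = 7.1e-14). In HT29 CDK1 had 102 and 92.6 CPM in Ptpn2-null and 187 and 175 CPM in control cells under IFNg, against 182 and 177 CPM in Ptpn2-null vehicle and 204 and 202 CPM in control vehicle. In A375 the widest gaps were in AURKA (-0.89 ± 0.063) and PLK1 (-0.83 ± 0.057), where libraries labelled Ptpn2-null had 53.8, 64.7 and 59.6 CPM of PLK1 and those labelled control 99.6, 105 and 113 CPM.

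Under vehicle the genotypes differed less in MelJuSo and A549 and for most members in HT29. In HT29 37 members were lower in Ptpn2-null cells (8.66% of all genes lower) with a median log2 difference of -0.27, in MelJuSo 12 (0.554%) with a median of -0.16, and in A549 11 (1.38%) with a median of -0.13. In A549 and MelJuSo these counts fell with 1 library left out. In A549 the count was 3 to 8 (4 without control vehicle 1, 7 without Ptpn2-null vehicle 1, 3 without Ptpn2-null vehicle 2) and 3 by DESeq2, and in MelJuSo it was 3 to 10 (4 without control vehicle 2, 7 without control vehicle 3, 5 without Ptpn2-null vehicle 1, 3 without Ptpn2-null vehicle 3). In A375, 20 members were higher and 1 lower in vehicle libraries labelled Ptpn2-null (12.4% and 8.73% of all genes), but PTPN2 itself was higher there than in the libraries labelled control. Without control vehicle 3 that count was 12. The interaction was called with a larger fall in Ptpn2-null cells for 20 members in A549 (4.92% of all genes lower), 32 in HT29 (11.8%), 40 in MelJuSo (18.8%) and 37 in A375 as labelled (24%). In A549 it was 9 by DESeq2 and 13 without control IFNg replicate 1, and in HT29 it was 20 by DESeq2. Without HT29 control IFNg replicate 1, which carries the lung label, 34 members were lower in control cells under IFNg, 41 in the genotype comparison and 26 in the interaction.

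Taking A375 by its labels, 43 members were lower under IFNg in libraries labelled Ptpn2-null (32.4% of all genes lower), with a median log2 change of -1.44, and 42 in those labelled control (33%), with a median of -0.77. The IFNg effect in control cells differed among A549, HT29 and MelJuSo for 38 of 43 members in a joint test (52.9% of all 14723 genes were called). The 5 that did not pass were KIF18A, NDC80, NUF2, PLK4 and BUB3. The strongest were TOP2A (adjusted p = 4e-33), KIF20A (adjusted p = 2.1e-32) and TPX2 (adjusted p = 2.9e-32). TPX2 in control cells changed under IFNg by -0.12 ± 0.04 in A549, -0.77 ± 0.04 in HT29 and -0.04 ± 0.036 in MelJuSo.

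Genes around the members were read from lists chosen by function. Under IFNg+TNFa in B16, 37.6% of all genes were lower and 39.2% higher in Ptpn2-null cells, and 33.3% were lower and 36% higher in control cells. Of 45 other mitotic genes tested, 44 were lower and 1 higher in Ptpn2-null cells (median log2 change -3.3), and 44 were lower and 1 higher in control cells (median -2.1). Among 30 DNA replication genes, 30 were lower in Ptpn2-null cells (median -2.96) and 30 in control cells (median -1.87). Under IFNg alone, 28 of the 30 were lower in Ptpn2-null than in control cells (17.2% of all genes lower). Of 13 genes listed for FOXM1, MYBL2 and the MuvB/DREAM complex, 10 were lower and 2 higher under the pair in Ptpn2-null cells (median -1.09), and 9 were lower and 1 higher in control cells (median -0.73). The largest changes in this list in Ptpn2-null cells were those of Mybl2, which changed by -3.08 in Ptpn2-null and -1.81 in control cells, and Foxm1, which changed by -2.79 in Ptpn2-null and -1.82 in control cells. Of 11 G2/M entry regulators, 9 were lower in Ptpn2-null cells (median -0.94) and 8 in control cells (median -0.72), led in size by the phosphatase gene Cdc25b at -4.18 in Ptpn2-null and -2.45 in control cells. Of 5 CDK inhibitor genes tested, 2 were lower and 1 higher in Ptpn2-null cells, and 3 were lower and 2 higher in control cells. Cdkn1a, which encodes the CDK inhibitor p21, was among those higher, by 1.88 in Ptpn2-null and 1.45 in control cells.

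In the human lines, CDKN1A did not move with the members in one way. In HT29 it was higher under IFNg by 3.08 log2 units in Ptpn2-null and 3.6 in control cells, and in A549 by 0.47 in Ptpn2-null and 0.45 in control cells. In MelJuSo it was lower, with log2 changes of -0.43 in Ptpn2-null cells (a value given after it was seen) and -0.32 in control cells. In A375 it was higher by 1.12 in libraries labelled Ptpn2-null and lower (-1.56) in those labelled control. Both A375 values rest on vehicle labels that are in doubt, so their opposite signs cannot be read as a genotype difference. Of 30 DNA replication genes in A549, 27 were lower under IFNg in Ptpn2-null cells (26.7% of all genes lower) and 24 in control cells (23.7%). In HT29, 30 were lower in Ptpn2-null cells (34.5%), while in control cells 11 were lower and 5 higher (28.7% and 30.8%). In MelJuSo, 16 were lower and 3 higher in Ptpn2-null cells (27.4% and 27.2%), and in control cells edgeR called 0 (4 at an unadjusted p under 0.05, 0 by DESeq2; 5.18% of all genes lower and 6.32% higher). In A375, 25 were lower and 1 higher in libraries labelled Ptpn2-null (32.4% and 32.3%), and 24 were lower and 2 higher in those labelled control (33% lower and 33% higher). Of the 13 genes listed for FOXM1, MYBL2 and the MuvB/DREAM complex, 5 were lower and 2 higher in Ptpn2-null A549 cells (26.7% and 26.8% of all genes). In Ptpn2-null HT29 cells 6 were lower and 5 higher (34.5% and 33.3% of all genes). In Ptpn2-null MelJuSo cells 4 were lower and 2 higher (27.4% and 27.2%). MYBL2 was among those lower, with log2 changes of -0.89 in Ptpn2-null and -0.45 in control A549 cells, -1.1 in Ptpn2-null and -0.44 in control HT29 cells, and -0.62 in Ptpn2-null and -0.19 in control MelJuSo cells.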

How the data were processed

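Poly(A) RNA was sequenced from 81 libraries of B16, A375, A549, HT29 and MelJuSo cells. The authors deposited raw read counts per gene, and the submitters' processing notes list HTSeq 0.6.1p1 and Bowtie2 2.2.4, with Trimmomatic 0.33 and bcl2fastq 2.17.1.14, and the builds mm10 and hg19. Neither the annotation nor the strand setting is given in the sources used here. Libraries held 3498860 to 9605776 counts, which sets the precision of each value. Samples were grouped by their labels.

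Each line was fitted on its own by edgeR's robust quasi-likelihood test (edgeR 4.0.16, R 4.3.3) after filterByExpr and TMM scaling. P-values were adjusted by Benjamini and Hochberg's method across every gene tested, and an adjusted p under 0.05 was called. Errors of log2 changes are SEs worked back from the test, as the size of the change over the square root of its F statistic. CPM is TMM-scaled. The method was also run on simulated data in which few genes changed. That does not test it for changes as broad as those here. Alternatives were DESeq2 1.42.0, its size factors, no filter, a replicate block, only the compared groups, each library left out, removal of a transcript length trend, and 5 B16 libraries left out, the last chosen after seeing the data. Promoter windows came from RefSeq (GRCm38.p6), gene overlaps from GENCODE M21.

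The members and lists were chosen with earlier results of these data known. Any member may be named in any comparison, together with Ptpn2 and, of each list, up to 4 called genes with the largest change; overlapping genes are named for their overlap. Replicate numbers were not used to pair the samples, except in the replicate block.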

Additional observations from a re-analysis of the deposited data

Results flagged for a closer look

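In 9 comparisons the change of members under a cytokine differed between Ptpn2-null and control cells by the interaction test, and in 1 joint test the IFNg change in control cells differed between lines. In B16 the interaction was called for 36 members under IFNg (12.4% of all genes lower, 9.07% higher). It was called for 37 under IFNb+IFNg (8.74% and 6.69%) and 41 under IFNg+TNFa (15.3% and 11%). Most of these calls were a larger fall in Ptpn2-null cells. Under IFNb it was called for 2 members, Cdc20 and Cenpa (0.324% of all genes lower, 0.188% higher). Under IFNb+TNFa it was called for 2, Plk1 and Aurka (0.469% lower, 0.443% higher). Each of these calls under IFNb and IFNb+TNFa was lost without at least 1 library. In A375 as labelled the interaction was called for 37 members (24% of all genes lower, 23.1% higher). It was called for 20 in A549 (4.92% and 6.36%), 32 in HT29 (11.8% and 7.37%) and 40 in MelJuSo (18.8% and 16.6%). The joint test of A549, HT29 and MelJuSo control cells was called for 38 members (52.9% of all 14723 genes). In A375 the vehicle libraries go against their labels, so its interaction rests on labels that are in doubt.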

How the results depend on the processing

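In B16, counts of members called for IFNg, IFNb+IFNg and IFNg+TNFa against vehicle, between genotypes and in the interaction stayed within 1.5 times under the alternatives run. So did, in the human lines, counts for IFNg against vehicle other than in MelJuSo control cells, for genotype under IFNg, and for the interaction in A375 and MelJuSo, but not in A549 and HT29. Some other counts moved. By DESeq2 the count was 13 for the A375 vehicle genotype comparison, 9 for the A549 interaction, 3 for A549 under vehicle, 20 for the HT29 interaction, 0 for IFNg in MelJuSo control cells and 1 for the B16 genotype comparison under TNFa, which was also 1 without a filter. With the length trend removed it was 7 for the IFNb+TNFa departure in Ptpn2-null cells, 0 for the IFNb interaction and 5 for the IFNb+TNFa interaction. With only the compared groups it was 7 for the IFNb interaction, 11 for the IFNb+TNFa interaction, 11 for B16 under vehicle and 21 for MelJuSo under vehicle. For B16 under vehicle it was 5 with DESeq2's size factors and 7 without the 5 libraries, and the IFNb+TNFa interaction was 7 without them. The cause was not tested.

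With 1 library left out, counts ranged from 12 to 19 for A375 under vehicle, 13 to 22 for the A549 interaction, 3 to 8 for A549 under vehicle, 9 to 12 for IFNb in B16 control cells, 0 to 2 for the IFNb interaction, 0 to 4 for the IFNb+TNFa interaction, 0 to 1 for the B16 genotype comparisons under IFNb+TNFa and under TNFa, 1 to 4 for B16 under vehicle, 0 to 6 for IFNg in MelJuSo control cells and 3 to 10 for MelJuSo under vehicle. Where this leaves 1 library in a group, that library is assumed to vary like the others.

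Replicate numbers were not used to pair the samples, except in the replicate block. The mean correlation of same-numbered deviations was -0.00239 in B16, where single pairs of libraries ranged from -0.586 to 0.642. It was highest of the 5 lines in HT29, at 0.0634 (range 0.0196 to 0.121), against -0.0634 for differently numbered pairs. With the replicate block the count for IFNg in MelJuSo control cells was 5, and 7 of 1463 called member values lost their call.

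Of the 1463 called values, 16 changed sign. With the length trend removed these were Cenpa (-0.0024), Cenpe (0.19), Cenpf (0.196), Mad2l1 (0.0696) and Mki67 (0.199) under TNFa in Ptpn2-null cells, Kif4 under TNFa (0.0567) and Cenpe under IFNb+IFNg (0.11) in control cells, the IFNb+TNFa departures of Cenpe (-0.12), Cenpf (-0.15) and Mki67 (-0.11) in Ptpn2-null and Top2a (-0.0585) in control cells, and the IFNb+IFNg departures of Kif4 (0.0121), Mki67 (0.26), Pttg1 (-0.0701) and Tpx2 (0.0246) in control cells. Without the 5 libraries the genotype difference of Ect2 under IFNb+IFNg was 0.0518. Leaving out any one of the 6 libraries ended the call of Pttg1 under IFNg in control cells.

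Some values that did not pass the test and are named above changed sign. Between genotypes under IFNb+IFNg, Anln was 0.0405 and Plk4 0.204 without the 5 libraries, and Pttg1 was 0.172 with the length trend removed. With 1 library left out, Anln ranged from -0.241 to 9e-04, Plk4 from -0.127 to 0.132 and Pttg1 from -0.126 to 0.0089. Aurka under IFNg+TNFa was 0.0079 by DESeq2 and 0.0078 with its size factors, and -0.0684 to 0.0538 with 1 library left out. Such fits gave -0.0811 to 0.0857 for Ttk under IFNg in B16 control cells, -0.0529 to 9e-04 for BUB3 and -0.0762 to 0.0215 for PTTG1 in MelJuSo control cells, and -0.0069 to 0.0419 for BUB3 in MelJuSo Ptpn2-null cells.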
